A study of Mus musculus with 10 samples.

Results

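The chromatin regulators examined here were 34 mouse genes whose human counterparts are mutated in neurodevelopmental disorders, taken by symbol from a fixed list out of 30935 gene IDs in the count table. They fell into 4 classes: 7 subunits of SWI/SNF remodelling complexes, 5 CHD remodellers, 14 lysine methyltransferases and related SET-domain proteins, and 8 others. All 34 matched an Entrez gene ID, and all 34 passed the filter on low counts. RNA-seq was done on midbrain taken at embryonic day 14.5 from Rbfox1 +/+ (wild-type) mice and from Rbfox1 ΔHAR.321/ΔHAR.321 mice, which lack both copies of HAR.321 and are labelled 2xHAR.321 Knockout. HAR.321 is a human accelerated region, a sequence conserved in other mammals that changed quickly on the human lineage, in the locus of the splicing regulator gene Rbfox1. Each genotype had 5 libraries, called wild-type 1, 2, 4, 5 and 6 and deletion 2, 3, 4, 5 and 6 after their labels. The sources used here give no strain, litter, sex or pooling of the embryos, so p-values measure the spread between these libraries. Y-linked genes summed to 197 to 269.6 CPM in wild-type 1 and 4 and deletion 3, 4 and 5, and to 0 to 1.36 CPM in the other 5 libraries, so both sexes were present in both groups, in unequal numbers.

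Proteins of this kind set how accessible DNA is to the transcription machinery. SWI/SNF and CHD proteins use ATP to slide or evict nucleosomes, methyltransferases with a SET domain add methyl groups to lysines of histone tails, and acetyltransferases, deacetylases and demethylases add or remove other marks. Most of these genes are sensitive to dosage: loss of a single copy of ARID1B causes Coffin-Siris syndrome, of CHD7 CHARGE syndrome, of KMT2D Kabuki syndrome, of NSD1 Sotos syndrome and of EHMT1 Kleefstra syndrome, while CHD8, POGZ and ADNP are among the genes most often mutated in autism. In the embryonic brain they act in dividing progenitors and in the neurons that these produce.

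The libraries held 16246892 to 20255728 counts, with 18365 to 19452 genes detected in each. Rbfox1 stood at 140.4 to 166 CPM (read counts scaled by TMM to a common library size) in the wild-type and 147 to 181 CPM in the deletion libraries, which overlapped (0.11 higher on the log2 scale, SE 0.07, adjusted p = 0.606). The position of HAR.321 relative to the counted exons was not examined, so this level does not check the labels. Of markers for the labelled tissue, 15 of 15 midbrain genes were tested, summing to 1012 to 1151 CPM in the wild-type and 988 to 1112 CPM in the deletion libraries, while 4 of 8 forebrain markers were tested, with all 8 summing to 87.0 to 121 and 92.6 to 115 CPM. Of 8 hindbrain and spinal cord markers, 5 (Hoxb2, Hoxa3, Hoxb3, Hoxc6 and Hoxd3) had no count in any library, and the 8 summed to 1.35 to 3.46 CPM in the wild-type and 0.446 to 9.94 CPM in the deletion libraries. Red blood cell markers were higher in 7 of 7 tested cases, with summed levels of 1698 to 2553 and 2232 to 2979 CPM, and progenitor markers were lower in 8 of 10, with sums of 1224 to 1639 and 1162 to 1675 CPM. None of the 10 progenitor or 7 tested red blood cell markers passed edgeR's test, and their part in the results below was not tested. In bulk tissue, fewer cells of a type and less RNA per cell cannot be told apart.

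The 34 genes encode large proteins, from 883 residues for Kmt5b to 5588 for Kmt2d, and their longest annotated transcripts ran from 4026 bases (Ehmt2) to 19823 bases (Kmt2d), with a median of 8268.5 against 3492 for all tested genes that have a length. Of tested genes with a known length, 5.66% have a transcript longer than the median member. GC content of those transcripts ran from 40.5% in Med13 to 60.8% in Ehmt2, with a median of 51.1% against 49.8% for tested genes. As a set they were well expressed: the median member stood at 146 CPM in the wild-type, a level that 10.5% of tested genes exceeded.

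Per kb of the longest transcript, the order of wild-type levels was led by the SWI/SNF core subunit Smarcc2 (108 CPM per kb), the NuRD remodeller Chd3 (84.6), the methyltransferase Ehmt2 (67.9), the SWI/SNF ATPase Smarca4 (62.1) and Chd4 (52.1), the other NuRD remodeller. The lowest were Adnp (4.42 CPM per kb), the deacetylase Hdac4 (4.64) and Kmt2d (5.62). Several paralogues differed in level per kb by more than the range of the wild-type libraries: Smarca4 over Smarca2 (30.0), Smarcc2 over Smarcc1 (26.6), Arid1a (29.4) over Arid1b (12.7), Ehmt2 over Ehmt1 (26.3), and Chd8 (18.1) over Chd7 (9.34). Ranges overlapped between Kmt2a (10.5) and Kmt2b (10.2), and so they did between Setd1a (7.99) and Setd1b (8.56) and between Med13 (10.1) and Med13l (8.72).

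No member passed edgeR's quasi-likelihood test over all genes (adjusted p from 0.0747 upwards), in a comparison where 9 of 15288 genes, or 0.0589%, passed at an adjusted p of 0.05, all 9 of them lower in the deletion group. As a description, 30 of the 34 had a higher level and 4 a lower level in the deletion group, against 49.3% higher over all tested genes, and the median log2 fold change (log2FC, deletion against wild-type) was 0.14 against 0.00 for all genes tested. At an unadjusted p under 0.05, 18 were higher and 0 lower, where 5.62% of all tested genes were higher and 4.92% lower. These shares of all genes do not allow for transcript length. Among all tested genes over 10 kb, 77.608% were higher, and 25.954% were higher at an unadjusted p under 0.05. The 18 members ran from 0.12 to 0.33 on the log2 scale, with adjusted p from 0.0747 to 0.473. DESeq2 called 6 members higher (Arid1a, Kmt2a, Setd1b, Setd5, Kdm5b and Ep300). It gave an adjusted p to 8174 genes, not including Adnp, and called 1.63% of these genes higher. With limma-voom, 0 members were called. For 5 members every deletion library lay above every wild-type library, and for none every deletion library lay below, where 1.22% and 1.26% of tested genes had groups apart in those directions. Members of the list were already known to lean upwards in these libraries when they were chosen, so the counts describe them and support nothing further.

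**Figure D1:**
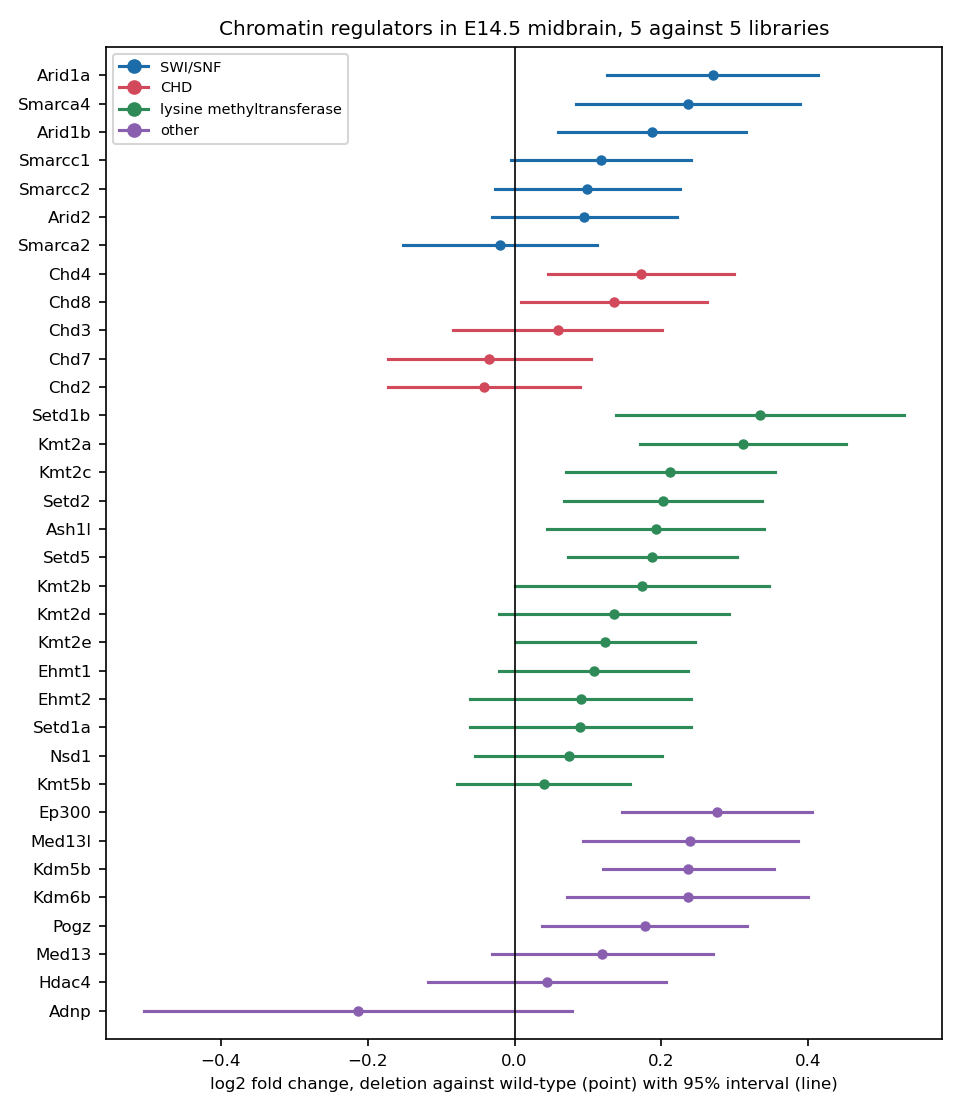
Log2 fold change of the 34 chromatin regulators, deletion against wild-type (x axis), with its 95% interval from edgeR, 5 libraries per group, ordered by size within 4 classes shown in colour. All 14 of the lysine methyltransferase class lie to the right of 0, and the 4 points left of 0 are Smarca2, Chd2, Chd7 and Adnp.

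The SWI/SNF class had 6 of 7 members higher, with a median of 0.12, and 3 had an unadjusted p under 0.05. Arid1a, the DNA-binding subunit that defines the canonical BAF complex, was at 259, 259, 212, 224 and 250.3 CPM in wild-type 1, 2, 4, 5 and 6, and at 295, 278, 323, 273 and 283 CPM in deletion 2, 3, 4, 5 and 6. All 5 deletion libraries lay above the highest wild-type library, and deletion 4 was the highest of all. Its log2FC was 0.27 (SE 0.07, 95% interval 0.13 to 0.41, adjusted p = 0.112). Its alternative in the complex, Arid1b, had one of 0.19 (SE 0.06, adjusted p = 0.228), with wild-type libraries at 133 to 161 CPM and deletion libraries at 159 to 171 CPM, so that the ranges overlapped. Smarca4 (BRG1), the ATPase that progenitors depend on, had a log2FC of 0.24 (SE 0.07, adjusted p = 0.195), at 356 to 446 and 419 to 521 CPM.

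Smarca2 (BRM), the paralogous ATPase, stood at 171 to 187 CPM across wild-type and 159 to 192 CPM across deletion libraries, which gave -0.02 (SE 0.06). The scaffold subunits Smarcc1 (0.12, SE 0.06) and Smarcc2 (0.10, SE 0.06) and Arid2 (0.09, SE 0.06), which marks the PBAF form of the complex, were a little higher with intervals that included 0. A list of 21 further SWI/SNF subunits had a median of 0.04, with 12 higher and 9 lower and none passing (2 higher and 0 lower at an unadjusted p under 0.05). Among them Ss18l1 (0.16, SE 0.06), a subunit of the neuronal BAF complex, and Bicral (0.15, SE 0.07) were among those with the smallest p, and Brd7 (-0.14, SE 0.07) and Bcl7b (-0.20, SE 0.12) lay at the other end. For this list and the other partner lists below, the shares of all tested genes at an unadjusted p under 0.05 were 5.62% higher and 4.92% lower.

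The CHD class was split, with 3 of 5 members higher and a median of 0.06. Chd4, the ATPase of the NuRD repressor complex, was at 324 to 377 CPM across wild-type and 367 to 416 CPM across deletion libraries (log2FC 0.17, SE 0.06, adjusted p = 0.273). Chd8, which binds promoters of many other genes on this list and is a leading autism gene, was at 138 to 164 and 159.8 to 177 CPM (0.14, SE 0.06, adjusted p = 0.431). Chd3, the paralogue of Chd4 in NuRD, gave 0.06 (SE 0.07). Chd7, the CHARGE syndrome gene, and Chd2, mutated in epileptic encephalopathy, had values within the spread (-0.03, SE 0.07, and -0.04, SE 0.06). Their transcripts have 10216 and 9085 bases, those of Chd4 and Chd8 6697 and 8509. The part of length in these values was not tested. Other NuRD and CHD genes had a median of 0.01 (9 of 16 higher, none passing, 3 higher and 0 lower at an unadjusted p under 0.05), from Chd5 (0.18, SE 0.08) and Chd9 (0.18, SE 0.07) and the NuRD subunit Mta1 (0.16, SE 0.08) down to Cdk2ap1 (-0.18, SE 0.09).

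All 14 lysine methyltransferases and related proteins were higher, with a median of 0.15, and 8 had an unadjusted p under 0.05. Kmt2a (MLL1) methylates the histone H3 lysine that marks active promoters and keeps neurogenic genes expressed. Its level was 176, 192, 152, 158 and 183 CPM in wild-type 1, 2, 4, 5 and 6, and 207, 225, 205, 206 and 225 CPM in deletion 2, 3, 4, 5 and 6. The groups did not overlap, and wild-type 2 was the nearest to the deletion range. At a log2FC of 0.31 (SE 0.07, 95% interval 0.17 to 0.45, adjusted p = 0.0747) it had the smallest p of the 34 genes. Setd1b, a catalytic subunit of another H3 methyltransferase complex of promoters, had the highest log2FC, 0.33 (SE 0.09, 95% interval 0.14 to 0.53, adjusted p = 0.160). Its levels were 73.6, 89.3, 58.9, 76.5 and 80.5 CPM in the wild-type libraries and 97.4, 85.4, 112, 88.3 and 94.1 CPM in the deletion libraries, in the same order. The groups overlapped through wild-type 2, and wild-type 4 and deletion 4 were the extremes.

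Setd5, a SET-domain protein of disputed enzymatic activity, was at 163, 161, 149, 150.4 and 155 CPM in the wild-type and 177, 177, 174, 182 and 177 CPM in the deletion libraries. The deletion libraries lay closer together than for any other of the 5 non-overlapping genes, and the log2FC was 0.19 (SE 0.06, adjusted p = 0.174). Kmt2c (0.21, SE 0.07), an enhancer methyltransferase, Setd2 (0.20, SE 0.06), which marks the bodies of transcribed genes, and Ash1l (0.19, SE 0.07), which counters Polycomb silencing, had adjusted p from 0.217 to 0.293, and for each of these genes no deletion library fell below the mean of the wild-type. Kmt2b (0.17, SE 0.08), Kmt2d (0.14, SE 0.08), Kmt2e (0.12, SE 0.06), Ehmt1 (0.11, SE 0.06), Ehmt2 (0.09, SE 0.07), Setd1a (0.09, SE 0.07), Nsd1 (0.07, SE 0.06) and Kmt5b (0.04, SE 0.06) had adjusted p of 0.471 or more. Ehmt1 and Ehmt2 place repressive marks on histone H3. For Ehmt2, 2 of 5 deletion libraries were below the mean of the wild-type, and without deletion 4, at 351 CPM against 271 to 283 CPM in the others, its log2FC was 0.015 (SE 0.05, adjusted p = 0.934).

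Partners of the Kmt2 and Setd1 enzymes in COMPASS complexes differed in direction, and none passed: 8 of 13 were higher, with a median of 0.01 (2 higher and 1 lower at an unadjusted p under 0.05). Ncoa6, a subunit of complexes that hold either Kmt2c or Kmt2d, was higher by 0.25 (SE 0.06, adjusted p = 0.0828) and Hcfc1 by 0.24 (SE 0.06, adjusted p = 0.122), both without overlap of the groups. Dpy30, a small core subunit of every such complex, was lower by the same measure (-0.22, SE 0.08, adjusted p = 0.278), also without overlap. Their longest transcripts have 7101, 8262 and 789 bases. Over all tested genes, 1.22% had groups apart and higher, and 1.26% apart and lower. Polycomb and other methyltransferase genes had a median of 0.04 (12 of 19 higher, none passing, 2 higher and 1 lower at an unadjusted p under 0.05), from Suv39h1 (0.18, SE 0.08) and Wiz (0.15, SE 0.07) to Phf1 (-0.33, SE 0.11).

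Of the 8 other regulators, 7 were higher, with a median of 0.21. Ep300 encodes a histone acetyltransferase of active enhancers, mutated in Rubinstein-Taybi syndrome. It stood at 99.8, 109, 92.0, 102 and 108 CPM in wild-type 1, 2, 4, 5 and 6 and at 123, 119.7, 129, 127 and 119 CPM in deletion 2, 3, 4, 5 and 6. No deletion library came within the wild-type range, and the log2FC was 0.28 (SE 0.06, 95% interval 0.15 to 0.41, adjusted p = 0.0757). Kdm5b, a demethylase that removes the mark placed by the Kmt2 enzymes, was at 228, 218, 218, 215 and 226 CPM in the wild-type and 266, 245.1, 251, 269.8 and 269.5 CPM in the deletion libraries. These groups too stood apart, with the wild-type libraries close together, and gave 0.24 (SE 0.06, 95% interval 0.12 to 0.35, adjusted p = 0.0874). Kmt2a and Kdm5b, a writer and an eraser of the same mark, were thus both higher, and neither passed. Of the relatives of Kdm5b outside the list, Kdm5a gave -0.14 (SE 0.07) and Kdm5c 0.01 (SE 0.14).

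Kdm6b, a demethylase of the Polycomb mark, reached a log2FC of 0.24 (SE 0.08, adjusted p = 0.237), Med13l, which links the kinase module to Mediator, one of 0.24 (SE 0.07, adjusted p = 0.174), and the HP1-binding protein gene Pogz one of 0.18 (SE 0.07, adjusted p = 0.311). Med13, the paralogue of Med13l, gave 0.12 (SE 0.07), with deletion 4 at 96.1 CPM below all 5 wild-type libraries and the other deletion libraries at 115 to 127 CPM. Hdac4 gave 0.04 (SE 0.08). Among demethylases, acetylation enzymes and HP1 proteins outside the list, 19 of 27 were higher with a median of 0.05 and none passed (4 higher and 0 lower at an unadjusted p under 0.05), from Kdm4a (0.20, SE 0.07) and Kdm2a (0.16, SE 0.06) to Cbx3 (-0.18, SE 0.09). Mediator had 15 of 31 further subunits higher, with a median of 0.00 and none passing (0 higher and 3 lower at an unadjusted p under 0.05). Its values ran from Med15 (0.17, SE 0.10) to Med11 (-0.25, SE 0.13), and Med8 (-0.19, SE 0.08), Med30 (-0.19, SE 0.09) and Med28 (-0.15, SE 0.07) lay without overlap below the wild-type. Over all tested genes, 1.26% had groups apart in this direction. The longest transcripts of Med8, Med30 and Med28 have 1743, 1007 and 4560 bases, and the part of length in their values was not tested.

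Adnp was the exception among the others, at 19.9, 24.0, 25.7, 14.9 and 24.5 CPM in the wild-type and 22.8, 19.3, 14.2, 19.3 and 18.6 CPM in the deletion libraries. The values overlapped widely and the error was the largest of the 34 (log2FC -0.21, SE 0.14, adjusted p = 0.643). In the GENCODE M21 annotation, 82.1% of Adnp exon bases are shared with Gm20716 on the same strand, and the table gives Gm20716 only 0 to 7 counts per library, so the low Adnp level is uncertain as a measure of the gene. Setd1a (52.3%), Hdac4 (22.4%) and Chd2 (19.3%) also share a large part of their exon bases with other annotated genes. The sources used here do not say how such reads were counted.

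Some paralogues of this kind replace each other during neuronal differentiation, so 11 pairs were compared as a log2 ratio of their CPM within each library, which needs no scaling factor. None passed an exact two-sided permutation test after adjustment over the 11 pairs; the smallest p that 5 against 5 allows is 0.00794, so a single pair could not go below an adjusted p of 0.0873. The ratio of Smarca4 to Smarca2 averaged 1.15 ± 0.12 over wild-type and 1.41 ± 0.22 over deletion libraries (SD, n = 5 each), a difference of 0.26 (exact permutation p = 0.0556, adjusted p = 0.175). Leaving out 1 library, this difference ran from 0.19 (without deletion 4) to 0.33 (without deletion 3). With trends on length and GC content removed, as described below, it was 0.25. Setd1a to Setd1b moved the other way, from -0.54 ± 0.14 to -0.79 ± 0.10 (SD, n = 5; exact permutation p = 0.0238, adjusted p = 0.175), and so did Chd7 to Chd8, from -0.69 ± 0.11 to -0.86 ± 0.11 (SD, n = 5; exact permutation p = 0.0397, adjusted p = 0.175). Chd4 to Chd3 differed by 0.11 (exact permutation p = 0.0635, adjusted p = 0.175). The ratios of Smarcc1 to Smarcc2 (0.02) and Ehmt1 to Ehmt2 (0.02) differed by less than their SD within a group.

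Levels of the members also varied among libraries of the same group. Together the members took 0.551% to 0.626% of all counts in the wild-type libraries and 0.641% to 0.673% in the deletion libraries, with no overlap. The list was already known to lean upwards when chosen, so this gap describes the members and was not tested. Within the wild-type group, wild-type 2 held the highest level of 19 members and wild-type 4 the lowest level of 23. Within the deletion group, deletion 4 held both the highest level of 13 members and the lowest level of 13. The first 13 (among them Arid1a, Smarca4, Setd1b, Kmt2b, Kdm6b and Ehmt2) have a median GC content of 56.7%, and the other 13 (among them Med13, Ash1l, Nsd1, Arid2 and Kmt2a) one of 47.9%. Over the 17 members of higher GC content, deletion 4 stood 0.15 above the mean of the other deletion libraries in the median, and over the 17 of lower GC content 0.07 below it (median -0.07). Across all genes, the slope of log2 CPM on GC content was 0.25 per 10% in deletion 4 and -0.10 to 0.09 in the other 9 libraries. Between the groups, the median log2FC was 0.14 and 15 of 17 members were higher in each of these GC classes; a difference between the classes was not tested.

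**Figure D2:**
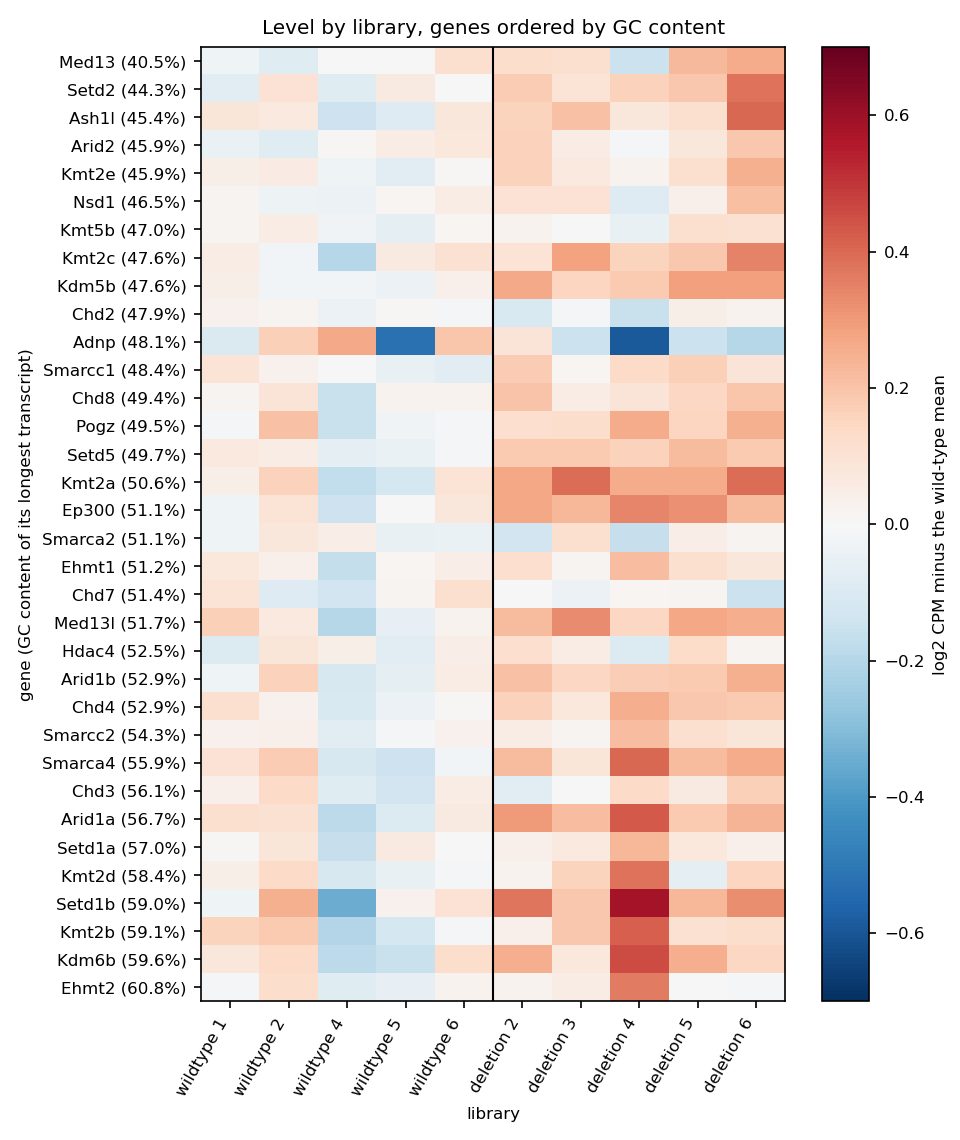
Log2 CPM of each member minus its wild-type mean (colour), in 10 libraries (columns) and with genes ordered from low to high GC content (rows). Deletion columns are mostly red, and deletion 4 runs from mostly pale or blue at the top to the strongest red at the bottom.

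The trend of level on transcript length differed among libraries too, and its relation to genotype was not tested. Relative to the mean of all libraries, the slope of log2 CPM on log2 transcript length was -0.061 to -0.010 per doubling in the wild-type and 0.034 to 0.104 in deletion 2, 3, 5 and 6, while deletion 4 had a slope of -0.055. Deletion 4, with the highest share of counts for these genes (0.673%), thus differed from its group in both slopes, and the part of either slope in that share was not tested. With trends on length and GC content removed, the members' median deviation from their overall mean was 0.07 in deletion 4, 0.05 in deletion 5, 0.02 in deletion 2, 0.00 in deletion 6 and -0.01 in deletion 3, against 0.02 in wild-type 1 and -0.05 to -0.04 in the other wild-type libraries.

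**Figure D3:**
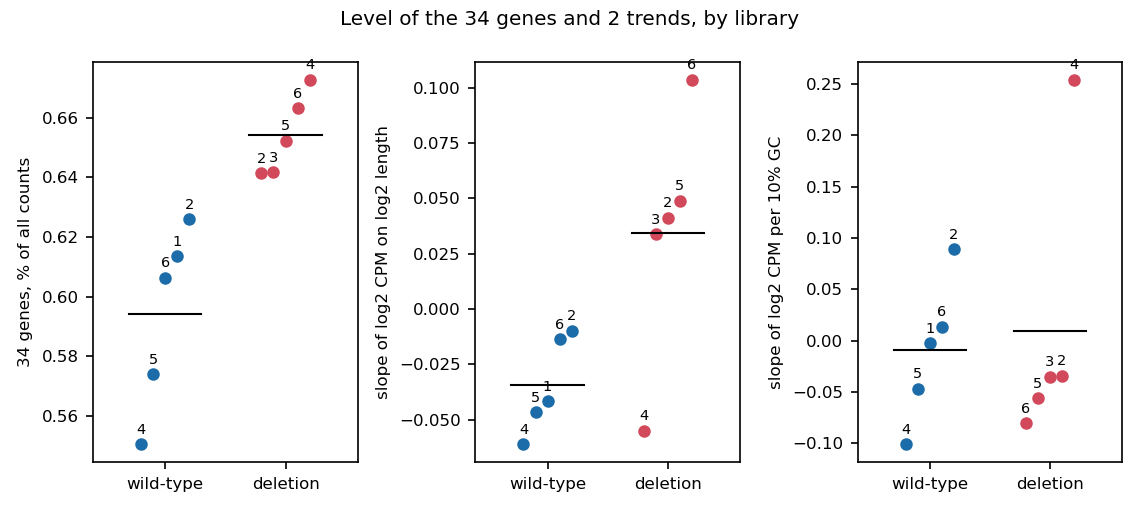
Share of all counts taken by the 34 genes (left), slope of log2 CPM on log2 transcript length (middle) and slope of log2 CPM per 10% GC content (right) in each library, numbered by its label, with group means as lines. The share separates the genotypes, the length slope does so except for deletion 4, and the GC slope of deletion 4 lies apart from the other 9.

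Fold changes were therefore read against genes of the same length. The 9 members with transcripts of 6 to 8 kb gave a median log2FC of 0.17 against 0.07 for all 1272 tested genes of that length. The 11 members of 8 to 10 kb had one of 0.20 against 0.07 for 509 genes, and the 8 members over 10 kb one of 0.16 against 0.11 for 393 genes. In the shortest class that holds members, 4 to 6 kb, the 6 members had 0.09 against 0.03 for 3493 genes. Of all 34, 26 lay above the median of their length class and 17 above its upper quartile. At an unadjusted p under 0.05, 0 of 6 members of 4 to 6 kb were higher, against 8.1878% of genes of that length. Over 6 kb these were 6 of 9 against 16.116%, 8 of 11 against 16.503% and 4 of 8 against 25.954%, by rising length class. At any p, 4 of 6, 9 of 9, 10 of 11 and 7 of 8 members were higher, from 4 to 6 kb upwards. The shares of all genes in these classes were 60.464%, 72.17%, 75.049% and 77.608%. These length classes include the members and are not matched for level. The median member stood at 146 CPM in the wild-type, against 25.4 CPM for the median tested gene. The part of level in the shares at an unadjusted p under 0.05 was not tested. The 127 other genes of the same complexes and families also differed by length: under 2 kb, 2 of 16 were higher (median -0.11), from 2 to 6 kb, 43 of 78 (median 0.01), and over 6 kb, 30 of 33 (median 0.10).

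**Figure D4:**
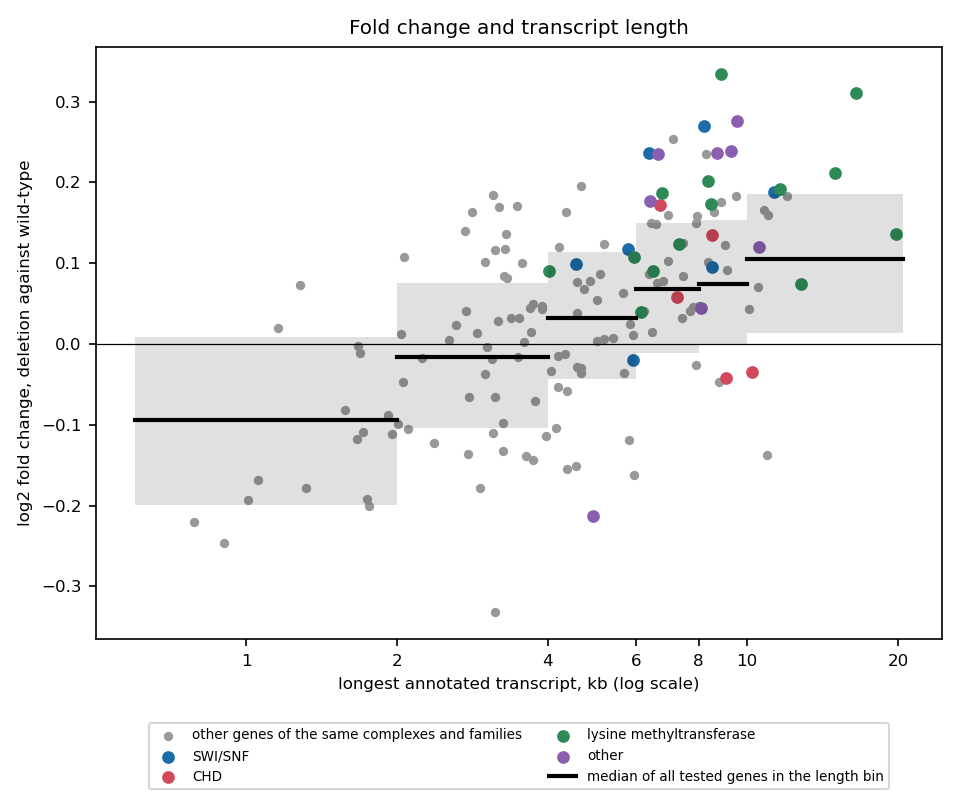
Log2 fold change (y axis) against the longest annotated transcript in kb (log scale) for the members, coloured by class, and for 127 other genes of the same complexes and families (grey). Black lines give the median and grey boxes the middle 50% of all tested genes in 6 length classes, and most members over 6 kb lie above the line of their class.

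Removing each library's trend on length from the fit lowered the members' median log2 fold change from 0.14 to 0.07, with 26 higher and 8 lower, and removing trends on length and GC content lowered it to 0.06, with 24 higher and 10 lower. No member passed in either fit (adjusted p from 0.362 and from 0.106 upwards). At an unadjusted p under 0.05, 10 members were higher and 1 lower without the length trend, where 4.29% and 3.44% of all tested genes were. Without both trends 10 were higher and 2 lower, where 5.02% and 4.55% of tested genes were. The same 10 were higher in both fits: Arid1a, Smarca4, Kmt2a, Setd1b, Setd2, Setd5, Kdm5b, Kdm6b, Ep300 and Med13l. With both trends removed, Setd1b gave 0.22 (SE 0.06, adjusted p = 0.136), Kmt2a of 0.18 (SE 0.05, adjusted p = 0.106), Ep300 of 0.16 (SE 0.05, adjusted p = 0.211), Arid1a of 0.15 (SE 0.05, adjusted p = 0.200) and Kdm5b of 0.14 (SE 0.04, adjusted p = 0.211).

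By class, the median of the CHD remodellers went from 0.06 to -0.05 in this fit. That median is the value of Chd3, the only CHD member to change sign, while Chd4 (0.07) and Chd8 (0.03) stayed higher. Chd7 and Chd2, already below 0 as counted, were at -0.16 (SE 0.06, adjusted p = 0.382) and -0.14 (SE 0.05, adjusted p = 0.332). They were the 2 members lower at an unadjusted p under 0.05. The median of SWI/SNF members went from 0.12 to 0.05, that of lysine methyltransferases from 0.15 to 0.06 and that of the others from 0.21 to 0.11. The sign changed with both trends removed for Chd3, Kmt2d, Kmt5b, Setd1a, Nsd1 and Hdac4, with values from -0.07 to -0.01 and adjusted p of 0.810 or more. A trend fitted over all genes also removes any change of the genes themselves that runs with length, and the 2 cannot be told apart.

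**Figure D5:**
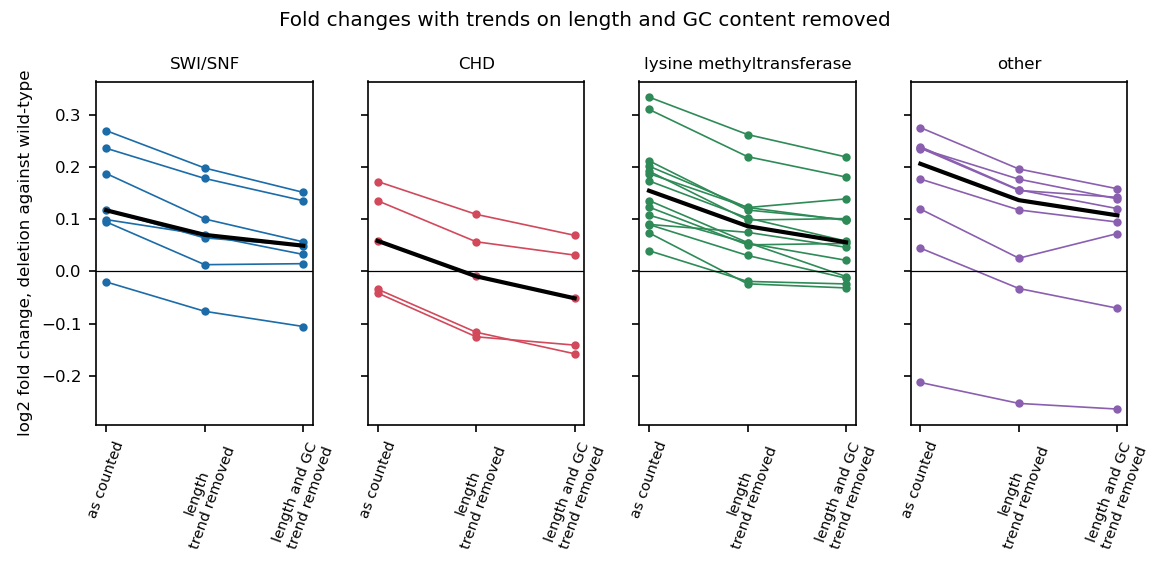
Log2 fold change of each member (coloured lines) as counted, with the length trend removed and with trends on length and GC content removed, in 4 classes, with class medians in black. Every class median falls from left to right, and that of the CHD class ends at -0.05.

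Single libraries decided how many members passed. Without deletion 4, edgeR called 6 members, all higher (Arid1a, Kmt2a, Setd5, Kdm5b, Ep300 and Med13l), where it called 0.888% of tested genes higher. Without wild-type 2 it called 2, Kmt2a and Ep300, where 0.369% of genes were called higher, and without any 1 of the other 8 libraries it called 0. With no filter on low counts it called Kmt2a alone, where 0.114% of genes were called higher. Among the 34, 20 kept a log2FC within 1.5 times of the full value in all 10 fits that each left out 1 library, and 14 did not. Kmt2a ran from 0.27 to 0.35, Ep300 from 0.24 to 0.29, Kdm5b from 0.22 to 0.25 and Arid1a from 0.23 to 0.30. Without deletion 4, Ehmt2 went from 0.09 to 0.015, Kmt2d from 0.14 to 0.07, Kmt2b from 0.17 to 0.11 and Setd1a from 0.09 to 0.05, while Med13 went from 0.12 to 0.18, Nsd1 from 0.07 to 0.11, Kmt5b from 0.04 to 0.06 and Hdac4 from 0.04 to 0.08. Without wild-type 4, Setd1a stood at 0.05 and Ehmt1 at 0.07. Adnp ran from -0.33 without wild-type 5 to -0.12 without deletion 4. The other 4 that moved by more were Smarca2, Chd2, Chd3 and Chd7, whose log2FC lay between -0.07 and 0.09 in every such fit.

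The starts of these genes were examined as a property that the list did not use. In RefSeq (GRCm38.p6), 24 of the 34 had a promoter of 300 bases, from 250 before to 50 after the transcription start. The first start listed for a gene was used, which may not be the start in use in this tissue. The 10 members without such a promoter include Setd1b. The GC box, the letters GGGCGG on either strand that Sp-family factors bind, was in 22 of 24 (91.7%), against 63.1% of 11975 promoters of tested genes, and the TATA box letters TATAAA were in none, against 7.14%. CCAAT was in 4 (16.7% against 38.5%), the ETS letters CCGGAAG in 3 (12.5% against 16.7%), the NRF1 letters GCGCATGC in 2 (8.33% against 5.08%) and the YY1 letters AAGATGGC in none (against 4.26%), all on either strand, and none of these 6 words contains another. Members' promoters were also richer in GC, with a median of 69.8% against 60.7% and 31 CG dinucleotides against 20, and GC-rich sequence holds more GC boxes. A match describes the letters and not a bound site. The bases before the start are shown for the 3 genes with the smallest p, with GC boxes in capitals: Kmt2a (chr9:44881290-44881539, minus strand, 4 boxes), Ep300 (chr15:81585964-81586213, plus strand, 1 box) and Kdm5b (chr1:134559928-134560177, plus strand, 1 box), all GRCm38.p6 and 5′ to 3′.
Kmt2a: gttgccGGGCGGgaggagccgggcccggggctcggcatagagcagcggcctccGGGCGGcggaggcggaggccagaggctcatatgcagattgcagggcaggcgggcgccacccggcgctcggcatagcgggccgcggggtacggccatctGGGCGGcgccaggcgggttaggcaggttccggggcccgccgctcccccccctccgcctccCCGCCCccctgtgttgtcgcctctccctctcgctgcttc
Ep300: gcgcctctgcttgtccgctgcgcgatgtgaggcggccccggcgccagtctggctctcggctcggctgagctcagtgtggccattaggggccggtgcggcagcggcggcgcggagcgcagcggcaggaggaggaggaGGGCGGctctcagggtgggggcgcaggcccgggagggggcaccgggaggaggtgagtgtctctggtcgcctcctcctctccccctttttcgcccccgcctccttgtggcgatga
Kdm5b: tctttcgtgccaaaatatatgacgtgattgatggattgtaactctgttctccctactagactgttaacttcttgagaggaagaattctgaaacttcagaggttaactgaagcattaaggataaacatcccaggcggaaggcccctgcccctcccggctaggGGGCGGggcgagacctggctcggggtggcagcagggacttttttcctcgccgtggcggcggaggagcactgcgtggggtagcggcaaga

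These stretches of 250 bases hold 29, 25 and 13 CG dinucleotides at 76.8%, 73.2% and 54.4% GC. Kmt2a and Ep300 thus start in denser CG sequence than Kdm5b, while all 3 had groups that did not overlap. In Arid1a and Setd5, whose groups did not overlap either, the same stretch holds 18 and 0 CG dinucleotides at 61.2% and 36.8% GC. A relation of CG content to the fold change was not tested.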

How the data were processed

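RNA-seq counts of E14.5 midbrain were used from 5 wild-type and 5 deletion libraries. The authors deposited 1 table of raw counts per Entrez gene ID; HISAT2, featureCounts and the mm39 build are named in the submitters' processing notes, while the sources used here give no versions, annotation, strandedness or multi-mapping rule. Symbols came from RefSeq (GRCm38.p6) for 30648 of 30935 IDs; the others held 0.0116% of counts. The longest transcript in GENCODE M21 gave length and GC content, found for 92.4% of the 15288 tested genes and all members; coordinates are GRCm38.p6 and served only for sequence.

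The main test was edgeR 4.0.16 under R 4.3.3 (filterByExpr, TMM, robust quasi-likelihood F test, two-sided, group as the only term), with Benjamini-Hochberg adjustment over all genes and a threshold of 0.05. SE is the fold change over the square root of F. Trends were splines with 4 degrees of freedom, fitted per library where mean log2 CPM exceeded 3, then entered as offsets. On simulated counts with 200 of 15288 genes changed, the fit recovered 55% of 1.25-fold and 98% of 1.5-fold changes. Of its calls there, 6.13% were false. Those simulated counts held no trend on length or GC content. Paralogue ratios used log2 CPM with a prior count of 2 and an exact test over 252 assignments. No 2 libraries of a group were duplicates (lowest chi-square per degree of freedom 5.78). Named genes were all members, Rbfox1, and in each partner list the 3 with the smallest p and the lowest and highest fold change. Gm20716, Kdm5a and Kdm5c were added after values were seen. A partner gene that this rule names is not reported here. Members, lists and alternatives were chosen with earlier results of these data known. The alternatives were other scalings and filters, DESeq2 1.42.0, limma-voom (limma 3.58.1), the replicate block, a Y-linked covariate, trend removal and leaving out each library. All 10 columns matched a sample.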

Additional observations from a re-analysis of the deposited data

Results flagged for a closer look

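In groups of 5 libraries, 4 of 74 sets of values had 1 library set apart from the rest by more than Dixon's 95% limit, where chance alone gives about 1 in 20. Setd1a was at 61.0 CPM in deletion 4 against 53.1 to 54.5 CPM in the other deletion libraries, and Ehmt2 at 351 CPM in deletion 4 against 271 to 283 CPM. Ehmt1 was at 139 CPM in wild-type 4 against 158 to 164 CPM in the other wild-type libraries. The slope of log2 CPM on GC content was 0.25 per 10% in deletion 4 against -0.08 to -0.03 in the other deletion libraries; the part of this slope in the levels of Setd1a and Ehmt2, whose transcripts have 56.96% and 60.8% GC, was not tested.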

How the results depend on the processing

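The count of 9 genes over the whole table was 15 with upper-quartile factors, 69 with no filter, 268 with DESeq2, 0 with limma-voom, 0 with the replicate block, 12 (4 higher) with the Y-linked level as covariate, which called 0 members, 0 with the length trend removed, 18 with length and GC content trends removed, and 0 to 357 over the fits leaving out 1 library (88 without wild-type 2, 357 without deletion 4). The count of 0 members was 1 with no filter, 6 with DESeq2 and 0 to 6 when leaving out 1 library, and that of 0 partner genes was 2 with DESeq2 and 0 to 4. The members' median of 0.14 became 0.072 and 0.055 with the trends removed and ran from 0.12 to 0.16 when leaving out 1 library. With the replicate block the median was 0.16, 15 members had an unadjusted p under 0.05 and none passed. Deviations of same-numbered libraries correlated at -0.06 to 0.05, so no shared deviation by number was seen. The labels do not say whether equal numbers pair the libraries. With the length trend removed, the direction reversed for Chd3 (-0.0094), Kmt5b (-0.019), Nsd1 (-0.024) and Hdac4 (-0.033); with both trends removed, for Chd3 (-0.052), Kmt2d (-0.0098), Kmt5b (-0.024), Setd1a (-0.013), Nsd1 (-0.032), Hdac4 (-0.071) and the ratio of Ehmt1 to Ehmt2 (-0.024). Leaving out 1 library, Smarca2 ran from -0.060 to 0.014 and the ratio of Smarcc1 to Smarcc2 from -0.0080 to 0.045. The cause was not tested.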
